A study of Mus musculus with 24 samples.

Results

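Of the 45594 genes in the deposited gene table, 10 were followed that are widely used to mark microglia and early complement: C1qa, C1qb, C1qc, Trem2, Tyrobp, Csf1r, Cx3cr1, P2ry12, Tmem119 and Ctss. They were chosen by symbol, on chromosomes 1 to 19 or X, and all 10 were among the 21858 genes that passed the filter on low counts. The data were RNA sequencing of whole mouse retina of the strain C57/Bl6N at 12 ages: E11, E12, E14 and E16 in the embryo, P0, P2, P4 and P6 in the week after birth, and P10, P14, P21 and P28 later. Each age had 2 libraries, 24 in all, and no treatment or mutation is named in the labels. Retinas were frozen after dissection, RNA was extracted with Trizol, and libraries of PolyA RNA that keep the strand were prepared. Their input was 100 ng at E11 or E12 but 1 µg at every later age. The amount of input RNA and the change of age after E12 therefore cannot be told apart. The labels do not say whether the 2 libraries of an age came from separate animals, litters or pools, so every p-value measures the spread between these libraries, which may be technical.

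Microglia are the resident macrophages of the central nervous system. In the mouse they descend from yolk sac progenitors, enter the retina during embryonic life, depend on signals through the receptor Csf1r, and clear dying cells and synapses as retinal circuits form. C1q, built from the C1qa, C1qb and C1qc chains, starts the classical complement cascade, in which C4 and C3 are cleaved and deposited on targets that phagocytes take up through complement receptors. Trem2 is a surface receptor for lipids and lipoproteins that signals through the adaptor Tyrobp, P2ry12 senses adenosine diphosphate, Cx3cr1 is the receptor of the neuronal chemokine Cx3cl1, and Ctss is a lysosomal cysteine protease. Several of these genes are also made by macrophages outside the neural tissue. In bulk tissue, fewer cells of a type and less RNA per cell cannot be told apart.

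The libraries held 24567532 to 35898879 estimated counts, and the 10 genes took only a small part of them: single-library counts ran from 9 for Tmem119 to 661 for Csf1r. Levels are given as CPM (counts scaled to a common library size by TMM), replicate 1 before replicate 2. The summed level of 15 retina-defining genes ran from 1445 to 67735 CPM over the libraries. Lens genes set 3 early libraries apart: their summed level was 24.8 to 3414 CPM between the 2 libraries of E11, 258 to 3403 CPM at E12 and 80.6 to 2935 CPM at E14, with E11 replicate 1, E12 replicate 2 and E14 replicate 2 on the high side. At E16 it was 2.77 to 3.03 CPM, with up to 6 of the 15 lens genes at 0. Changes of the 10 genes that involve E11, E12 or E14 are therefore also given without those 3 libraries. Companion lists are given without them from E11 to E16. That setting leaves 1 library at each of E11, E12 and E14, whose spread is taken from the other stages. Its calls are therefore no independent check, and for the 10 genes only log2 changes are given.

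The 3 C1q genes lie side by side on the minus strand of chromosome 4 (GRCm38): C1qb at 136880129 to 136886187, C1qc at 136889804 to 136893065 and C1qa at 136895917 to 136898803. They span 18.675 kb with no other annotated gene between them. Trem2 lies on the plus strand of chromosome 17 (48346401 to 48354147), Tyrobp on the plus strand of chromosome 7 (30413760 to 30417585), and Ctss on the plus strand of chromosome 3 (95526786 to 95556403). Also on chromosome 3, on the minus strand, P2ry12 (59216272 to 59262871) sits inside Med12l, which runs on the opposite strand. Tmem119 is on the minus strand of chromosome 5 (113793729 to 113800516). Cx3cr1 (chromosome 9, minus strand, 119901616 to 120068283) overlaps Wdr48, Gorasp1, Ttc21a, Csrnp1 and Xirp1. The sources used here do not say whether counting used strand, so reads from exons shared with an overlapping gene cannot be told apart.

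Promoter sequence from RefSeq (GRCm38.p6) was matched for 6 of the 10 genes: C1qb, C1qc, Trem2, Ctss, P2ry12 and Cx3cr1. The 250 bases before the RefSeq start were searched on both strands. For C1qc this window (136892915 to 136893164) partly overlapped the deposited gene, which reaches to 136893065. The first word searched for was GAGGAA, the core of the PU box bound by Spi1, the transcription factor that macrophages depend on. It was found in 4 of the 6 (C1qb, C1qc, Trem2 and Ctss), against 23.3% of 32851 promoters of the same length. The ETS-IRF composite element was in 0 of the 6 (2.30% of all promoters). The word TATAAA of the TATA box was in Ctss alone (12.4% of all). There it lay on the strand opposite to transcription, as TTTATA, 233 to 228 bases before the start. Some of these words overlap in their letters, and a match is only a description of the window. The promoters of 3 genes that rose from E16 to P6 are shown, with the word on different strands. The sequences are C1qb (chr4:136886201-136886450, minus strand), Trem2 (chr17:48346151-48346400, plus strand) and Ctss (chr3:95526536-95526785, plus strand), each 5′ to 3′ in the direction of transcription, with GAGGAA or its reverse complement TTCCTC in capitals.
C1qb: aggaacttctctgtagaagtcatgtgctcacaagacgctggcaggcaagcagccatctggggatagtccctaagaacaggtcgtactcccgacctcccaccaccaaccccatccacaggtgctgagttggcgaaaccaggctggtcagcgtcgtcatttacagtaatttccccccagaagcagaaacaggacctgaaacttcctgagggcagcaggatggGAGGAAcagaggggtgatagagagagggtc
Trem2: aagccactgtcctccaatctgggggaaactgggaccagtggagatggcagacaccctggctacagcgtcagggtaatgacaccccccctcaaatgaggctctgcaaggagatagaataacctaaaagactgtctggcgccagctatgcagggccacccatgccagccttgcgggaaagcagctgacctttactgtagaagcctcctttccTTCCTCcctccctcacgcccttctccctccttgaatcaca
Ctss: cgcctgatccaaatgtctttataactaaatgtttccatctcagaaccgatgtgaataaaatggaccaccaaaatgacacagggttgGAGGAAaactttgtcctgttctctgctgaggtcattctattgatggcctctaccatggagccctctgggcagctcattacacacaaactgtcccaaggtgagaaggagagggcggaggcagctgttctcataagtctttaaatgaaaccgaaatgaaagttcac

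The chain genes C1qa, C1qb and C1qc were detected in every library, from E11 onward, so transcripts of the complement-initiating protein were present at every age. C1qa stood at 4.63 and 2.02 CPM at E11, 3.01 and 3.29 at E12, 1.88 and 3.05 at E14 and 2.95 and 2.57 at E16. After birth it stood at 2.57 and 2.46 CPM at P0, 2.73 and 4.23 at P2, 3.19 and 3.89 at P4, 3.62 and 4.25 at P6, 6.26 and 6.31 at P10, 4.22 and 3.78 at P14, 2.92 and 3.34 at P21 and 2.24 and 2.15 at P28. Its highest stage was P10, where both libraries lay above every other library, and its lowest was P28.

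C1qb was measured at 8.97 and 4.08 CPM at E11, 6.31 and 6.31 at E12, 3.35 and 4.15 at E14 and 2.83 and 3.28 at E16 before birth. The postnatal values were 3.71 and 3.91 CPM at P0, 3.71 and 4.26 at P2, 7.75 and 9.15 at P4, 7.18 and 7.42 at P6, 7.28 and 9.27 at P10, 5.05 and 5.36 at P14, 2.92 and 3.64 at P21 and 2.27 and 2.93 at P28. From P4 to P10 every library lay above every library from E14 to P2, and the 2 P28 libraries were lower than those of P14. E11 replicate 1 lay well above its partner for C1qb and C1qc, so that E11 overlapped with many later stages.

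C1qc followed at 6.34 and 2.06 CPM at E11, 2.38 and 4.48 at E12, 2.52 and 3.30 at E14 and 2.23 and 2.999 at E16 in the embryo. Postnatal C1qc was 2.86 and 2.87 CPM at P0, 3.39 and 4.90 at P2, 3.57 and 3.95 at P4, 4.51 and 4.96 at P6, 5.81 and 7.60 at P10, 4.09 and 4.62 at P14, 2.49 and 2.87 at P21 and 1.92 and 2.46 at P28. The highest mean was again at P10 (6.70 ± 1.26 CPM, SD, n = 2) and the lowest at P28 (2.19 ± 0.383 CPM).

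The receptor Trem2 and its adaptor Tyrobp both had low values around birth and at P28. Trem2 stood at 3.61 and 1.27 CPM at E11, 2.64 and 2.99 at E12, 1.34 and 1.92 at E14 and 0.902 and 1.48 at E16 before birth. From birth on it was 1.49 and 1.01 CPM at P0, 1.44 and 2.82 at P2, 3.40 and 2.70 at P4, 2.54 and 2.87 at P6, 4.08 and 3.72 at P10, 3.41 and 3.74 at P14, 1.30 and 2.02 at P21 and 1.005 and 1.62 at P28. Its highest mean fell at P10 and its lowest at E16, and the 2 libraries of P4, P6, P10 and P14 were all above those of E14, E16 and P0.

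Tyrobp was 3.09 and 1.47 CPM at E11, 3.19 and 2.65 at E12, 1.117 and 1.46 at E14 and 1.17 and 1.67 at E16 in embryonic retina. In postnatal retina it was 1.43 and 1.26 CPM at P0, 1.33 and 1.86 at P2, 2.89 and 3.37 at P4, 2.86 and 3.42 at P6, 2.44 and 3.52 at P10, 1.71 and 1.97 at P14, 1.10 and 0.775 at P21 and 0.919 and 0.841 at P28. Every library of P4, P6 and P10 exceeded every library from E14 to P2, and the 2 libraries of P28 lay below all but P21 replicate 2.

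The Trem2 gene count mixes coding and non-coding transcripts. Trem2-003, a retained-intron transcript of 4784 bases, held 52.3% of the estimated counts of Trem2 (22.6 to 79.9% in single libraries). The coding transcripts Trem2-001 and Trem2-002 together were at 0.307 and 0.615 CPM at E16, 1.11 and 1.38 at P6, 1.74 and 1.95 at P14, and 0.425 and 0.676 at P28. The coding sum was thus higher at P6 and P14 than at E16 and P28 with no overlap, as was the gene value. Its highest mean was at P14 (1.85 CPM), while the gene value was highest at P10, where the coding mean was 1.64 CPM. In single libraries the Trem2 gene count was 0.674 to 1.49 times the sum of its transcripts.

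The surface receptors Csf1r and Cx3cr1 had their highest means at E12. Csf1r lies on the plus strand of chromosome 18 (61105572 to 61132149, GRCm38) and overlaps Hmgxb3 on the opposite strand. This receptor kinase for Csf1 and Il34 was at 14.6 and 10.5 CPM at E11, 22.1 and 21.7 at E12, 13.2 and 12.9 at E14 and 7.46 and 8.63 at E16. Its postnatal values were 6.25 and 6.18 CPM at P0, 9.05 and 12.4 at P2, 15.7 and 17.2 at P4, 14.7 and 16.11 at P6, 21.21 and 19.5 at P10, 20.7 and 19.01 at P14, 9.17 and 10.21 at P21 and 6.72 and 6.96 at P28. At the TMM scaling both E12 libraries lay above all others, P10 and P14 came next, and P0 was lowest. Other scalings did not keep this separation. With library size alone P10 replicate 1 (22.45 CPM) lay above both E12 libraries (21.71 and 21.11), and P0 replicate 1 (6.65) above P28 replicate 1 (6.53). In the authors' normalized values P10 replicate 1 (21.39) also lay above both E12 libraries (21.37 and 21.28). Only 5 of the 11 pairs of stages that were neighbours in the order of means overlapped for Csf1r, the smallest number of the 10 genes.

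Cx3cr1 was 10.5 and 8.68 CPM at E11, 14.01 and 17.4 at E12, 5.71 and 7.38 at E14 and 5.204 and 6.46 at E16 in the embryo. It was 3.71 and 4.89 CPM at P0, 6.44 and 6.02 at P2, 10.3 and 13.1 at P4, 8.39 and 9.03 at P6, 9.43 and 7.96 at P10, 12.4 and 12.04 at P14, 3.72 and 5.66 at P21 and 3.99 and 4.44 at P28 after birth. The E12 libraries were again the highest, P14 and P4 followed by their means, and P0, P21 and P28 lay at the low end.

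P2ry12 and Tmem119 are used to tell resident microglia from incoming macrophages, and their courses differed from each other. P2ry12 was 2.76 and 1.82 CPM at E11, 5.43 and 5.50 at E12, 5.204 and 3.91 at E14 and 2.83 and 4.92 at E16 before birth. It was 1.43 and 1.36 CPM at P0, 5.46 and 3.84 at P2, 7.20 and 5.17 at P4, 4.32 and 4.93 at P6, 5.52 and 6.28 at P10, 7.82 and 9.20 at P14, 2.36 and 4.01 at P21 and 3.62 and 3.57 at P28 afterwards. P0 had the lowest libraries of the series for P2ry12, with no overlap with either E16 or P2, and P14 had the highest.

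Tmem119 was 4.70 and 8.06 CPM at E11, 1.504 and 3.39 at E12, 1.02 and 2.06 at E14 and 0.993 and 0.680 at E16. From P0 on it was 0.349 and 0.347 CPM at P0, 0.936 and 0.705 at P2, 0.306 and 0.674 at P4, 0.286 and 0.462 at P6, 0.578 and 0.625 at P10, 0.998 and 1.29 at P14, 1.40 and 1.35 at P21 and 1.09 and 1.19 at P28. Its mean was 18.3 times higher at E11 (6.38 ± 2.38 CPM) than at P0 (0.348 ± 0.00167 CPM), and the P14 to P28 libraries all lay above those of P0 to P10. From P4 to P10, where 6 of the other genes had their highest mean, every Tmem119 library lay below those of E14. Mesenchymal genes (11) also had their highest sum at E11 (222 to 278 CPM), as did red cell genes (10, 3914 to 8658 CPM). In E11 replicate 2, where Tmem119 was higher, the red cell sum was higher (8658 CPM) and the mesenchymal sum lower (222 CPM). At P6, where Tmem119 was near its lowest, the mesenchymal sum was 96.1 to 112 CPM and the red cell sum 28.8 to 29.5 CPM. Over the 24 libraries the Pearson r of Tmem119 with the other members was only -0.283 to 0.248. Which cells made Tmem119 in these libraries was not tested, so its course cannot be read as that of microglia.

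Ctss was 6.44 and 4.05 CPM at E11, 10.9 and 11.16 at E12, 5.08 and 5.11 at E14 and 4.51 and 5.50 at E16 before birth. It was 4.63 and 5.01 CPM at P0, 3.67 and 5.67 at P2, 13.9 and 16.22 at P4, 13.6 and 13.8 at P6, 12.002 and 14.5 at P10, 13.001 and 15.5 at P14, 6.71 and 5.73 at P21 and 9.21 and 8.35 at P28 after birth. The step from P2 to P4 separated 2 levels: all libraries of P4 to P14 lay above all libraries of E14 to P2, E12 stood between them, and P28 was above E14 to P2.

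**Figure D1:**
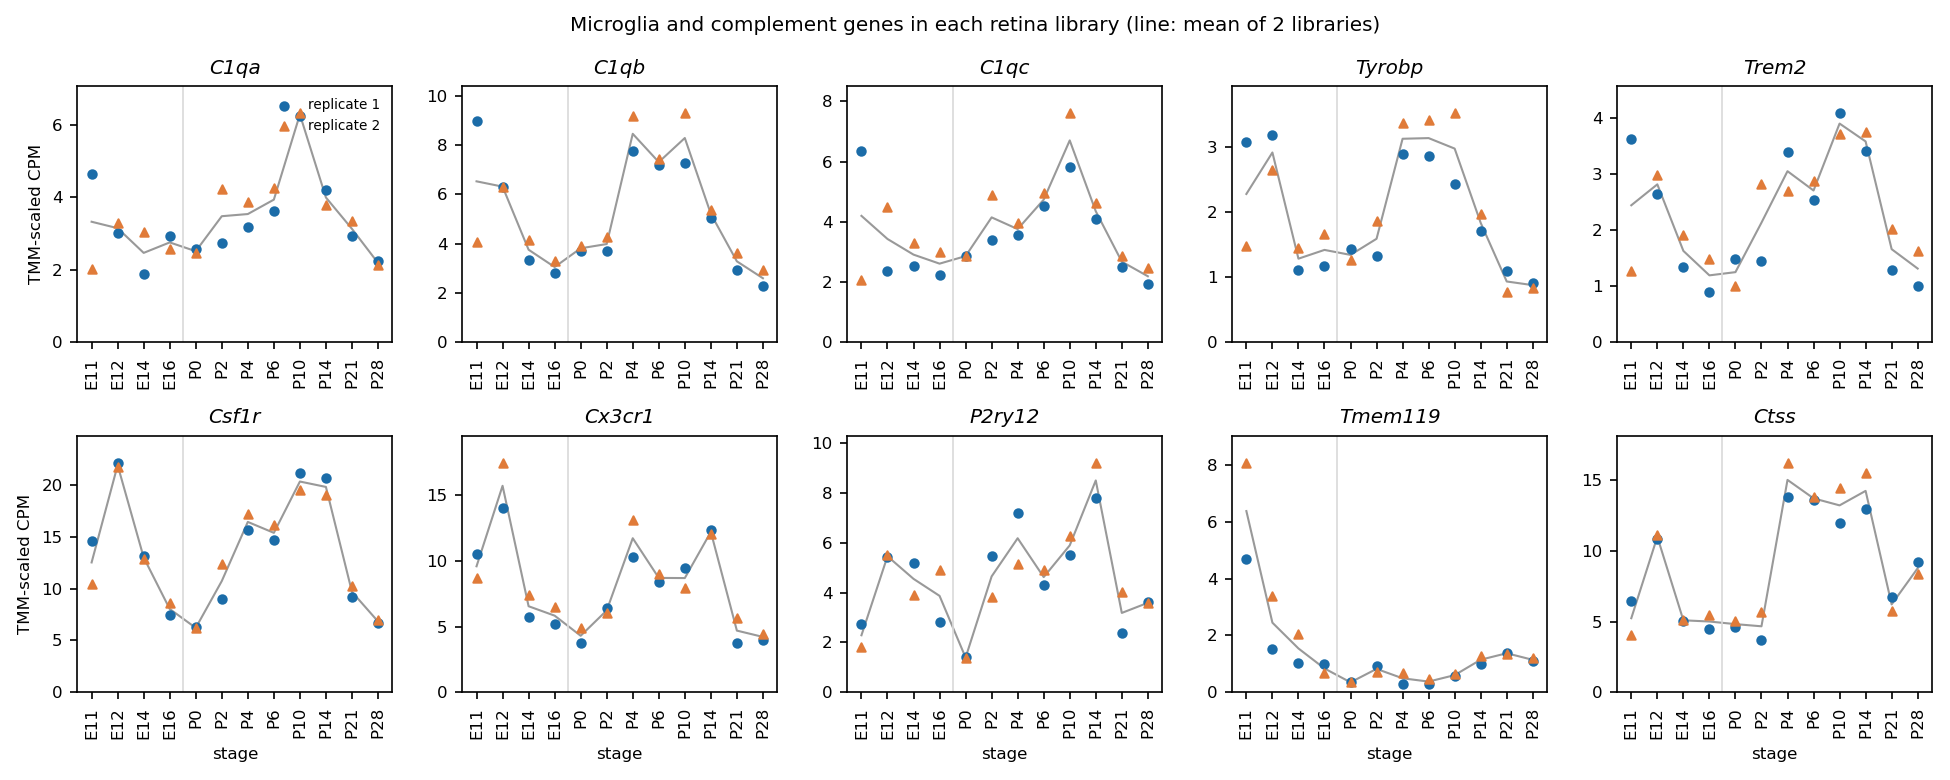
CPM (vertical axes, linear, from 0) of each of the 10 genes in all 24 libraries by stage (horizontal axes); points are libraries and lines join stage means. The highest mean is at E12 for Csf1r and Cx3cr1, between P4 and P10 for the C1q genes, Trem2, Tyrobp and Ctss, at P14 for P2ry12, and at E11 for Tmem119.

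Set side by side, 3 genes had their highest mean at P10 (C1qa, C1qc, Trem2), 2 at P4 (C1qb, Ctss), 2 at E12 (Csf1r, Cx3cr1) and 1 each at P6 (Tyrobp), P14 (P2ry12) and E11 (Tmem119). For some genes the libraries of the highest stage overlapped with those of the next highest. These were C1qb (P4 with P10), Tyrobp (P6 with P4), Trem2 (P10 with P14) and Ctss (P4 with P14), so their single highest age was not resolved. The lowest mean was at P28 for 5 genes, at P0 for 3, and at E16 and P2 for 1 each. Expressed as a percent of its own highest stage, the median gene stood at 61.8% at E11, 72.7% at E12, 41.7% at E14, 36.9% at E16 and 32.1% at P0. It then stood at 49.8% at P2, 74.8% at P4, 69.8% at P6, 93.8% at P10, 71.3% at P14, 39.4% at P21 and 32.0% at P28. The summed level of the 10 genes was 71.5 to 79.0 CPM at E12, 28.4 to 29.3 CPM at P0, 74.6 to 79.3 CPM at P10 and 33.0 to 34.5 CPM at P28. The sum and the median gene thus had 2 highs, at E12 and from P4 to P14, and 2 lows, around birth and from P21. The high at E12 was not shared by every gene. C1qa stood at 50.1%, C1qc at 51.2% and Tmem119 at 38.4% of their highest stage there, and the others at 64.2 to 100%. The stage with the highest mean was the same for each gene with library size alone and in the authors' deposited normalized values. Both come from the same libraries and do not resolve the overlaps.

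**Figure D2:**
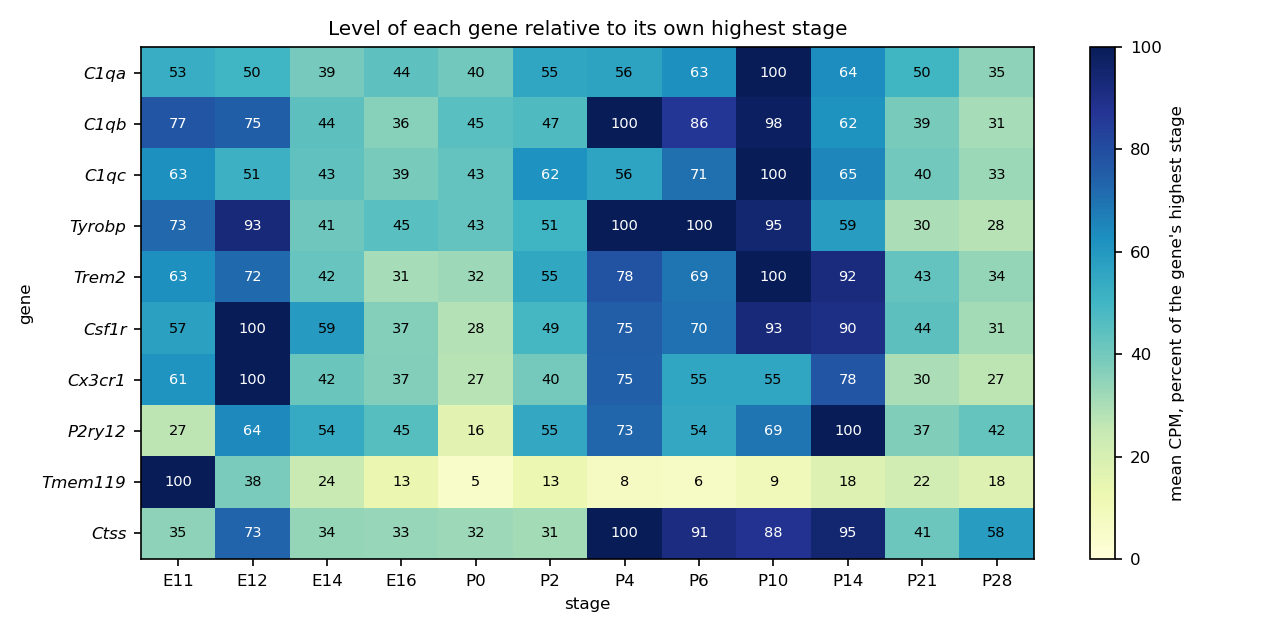
Stage mean CPM of each of the 10 genes (rows) as a percent of that gene's own highest stage, by stage (columns); darker cells are closer to 100%. The median gene stood at 72.7% at E12, 32.1% at P0, 93.8% at P10 and 32.0% at P28, with Tmem119 apart from the rest.

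Genes of other tissues moved along with parts of this course and against other parts. The summed level of 10 pigment epithelium genes was 180 to 233 CPM at E11, 94.2 to 152 at E12, 26.5 to 41.1 at E16, 21.17 to 24.4 at P0, 72.6 to 84.4 at P4, 188 to 242 at P10, 136 to 159 at P14 and 32.5 to 57.2 at P21. It was thus low around birth and at P21 and high at P10 and P14, as the 10 genes were. From E11 to E12 the courses parted. The 10 genes summed to 44.0 to 65.6 CPM at E11 and 71.5 to 79.0 at E12, while the pigment epithelium sum fell. At P4 they parted again. The 10 genes summed to 68.2 to 75.5 CPM there, close to their sum at P10. The pigment epithelium sum was well under its own at P10. At most 2 of those 10 genes were at 0 in any library of E11 and none at P10 or P14. Mesenchymal genes (11) summed to 222 to 278 CPM at E11, 123 to 191 at E12 and 27.9 to 28.104 at E16. Their sum was 96.1 to 112 CPM at P6, 70.5 to 71.3 at P14 and 30.8 to 31.3 at P28. Endothelial genes (12) went against the course around birth. They summed to 484 to 519 CPM at P0, 632 to 655 at P2 and 369 to 381 at P4. The part of these tissues in the levels of the 10 genes was not tested. For genes of border macrophages (10 genes) the sum was 29.7 to 33.8 CPM at E11, 29.3 to 53.1 at E12 and 23.3 to 27.0 at E16. The 53.1 CPM of E12 replicate 2 was the highest sum of this list over all libraries. Later the border macrophage sum was 11.097 to 11.3 CPM at P0, 13.3 to 13.5 at P6, 24.3 to 27.8 at P14 and 18.1 to 26.2 at P28. The part of border macrophages was not tested. Over all libraries, 10 monocyte and granulocyte genes summed to 0.926 to 5.98 CPM and 10 lymphocyte genes to 2.52 to 11.6 CPM. At E12, the first high of the sum of the 10 genes, red cell genes (10) summed to 766 to 1315 CPM. They summed to 3914 to 8658 CPM at E11 and 7.11 to 7.41 at P0, and their part was likewise not tested.

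The changes were tested with edgeR's quasi-likelihood test on all 24 libraries, with Benjamini-Hochberg adjustment over the 21858 genes. A called change had an adjusted p under 0.05 and was 2-fold or more, and errors of log2 changes are standard errors (SE). Values in parentheses beside a gene are log2 changes of the later against the earlier age. In the test of all stages together all 10 genes were called, in a setting where 77.3% of all genes were. For C1qa and C1qc the adjusted p, but not the size of the range, passed or missed the threshold with single libraries. C1qa, with a log2 range of 1.52, was lost without P10 replicate 1 (1.53, adjusted p = 0.0622) or P10 replicate 2 (1.51, adjusted p = 0.0649). C1qc, with a log2 range of 1.61, was lost without any 1 of 9 libraries, with ranges of 1.41 to 1.80 and adjusted p between 0.0515 and 0.138: E16 replicate 1, both of P0, P6 replicate 2, both of P10, P21 replicate 1 and both of P28. Without the 3 lens-rich libraries together, the log2 range was 1.73 for C1qa and 1.70 for C1qc.

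From E11 to E16, 2 of the 10 genes fell and 0 rose, where 9.11% of all genes were called lower and 13.6% higher by edgeR. DESeq2 also called 0 higher, and P2ry12 alone was higher at an unadjusted p under 0.05. Tmem119 had the largest fall of the 10 (log2 change -2.92 ± 0.441, adjusted p = 3.5e-05), and C1qb fell as well (-1.10 ± 0.276, adjusted p = 0.00346). Csf1r (-0.64 ± 0.163, adjusted p = 0.00372) and Cx3cr1 (-0.72 ± 0.217, adjusted p = 0.0117) passed the adjusted p but changed less than 2-fold. The other values ran from -1.03 for Trem2 to 0.76 for P2ry12. The median log2 change was -0.68 over the 10 genes and 0 over all genes tested. In this window all 11 mesenchymal genes fell, to 27.9 to 28.104 CPM in sum from 222 to 278, as did 10 of 14 lens genes tested, 8 of 10 red cell genes (1 rose) and 5 of 10 pigment epithelium genes (2 rose); their part in the falls was not tested.

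The E11 result depended on its libraries. E11 replicate 2, which stays in when the lens-rich libraries are left out, also held genes of other tissues. Its red cell genes summed to 8658 CPM against 3914 in replicate 1, and its endothelial genes to 235 against 160. Mesenchymal genes (222 against 278 CPM) and pigment epithelium genes (180 against 233 CPM) were lower in replicate 2. Without E11 replicate 1, the library with the highest lens sum of that age, C1qb was no longer called (-0.42, adjusted p = 0.166), nor was it without E16 replicate 1 (-0.99, adjusted p = 0.0414) or with library size alone (-0.97, adjusted p = 0.0106). Without E11 replicate 2, C1qc (-1.27, adjusted p = 0.00559), Tyrobp (-1.11, adjusted p = 0.0119) and Trem2 (-1.59, adjusted p = 0.00564) were called lower too. Without the 3 lens-rich libraries, with 1 library left at E11, the log2 change was -3.26 for Tmem119 and 1.09 for P2ry12. C1qa (0.45) and C1qc (0.34) had positive values under 2-fold. In that setting C1qb (-0.42), Csf1r (-0.38) and Cx3cr1 (-0.57) changed less than 2-fold. The median over the 10 genes was -0.070 in place of -0.68. P2ry12 also passed 2-fold without E11 replicate 1 (1.09) or without E16 replicate 1 (1.10).

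From E16 to P6, 4 of the 10 genes rose and 0 fell, against 13.2% of all genes called higher and 11.7% lower by edgeR. DESeq2 also called 0 lower, and Tmem119 alone was lower at an unadjusted p under 0.05. Ctss rose most (log2 change 1.46 ± 0.218, adjusted p = 3.0e-05), followed by C1qb (1.26 ± 0.276, adjusted p = 0.00113), Trem2 (1.18 ± 0.436, adjusted p = 0.0347) and Tyrobp (1.14 ± 0.328, adjusted p = 0.00840). Csf1r (0.94 ± 0.163, adjusted p = 1.4e-04) and Cx3cr1 (0.58 ± 0.217, adjusted p = 0.0367) passed the adjusted p with changes under 2-fold. C1qa (0.51 ± 0.312, adjusted p = 0.195), C1qc (0.86 ± 0.390, adjusted p = 0.0825), P2ry12 (0.26 ± 0.297, adjusted p = 0.514) and Tmem119 (-1.15 ± 0.494, adjusted p = 0.0663) did not pass. The median was 0.90 over the 10 genes and 0.0062 over all genes. Of the 10 pigment epithelium genes 4 rose and 1 fell in this window (summed level 55.0 to 84.9 CPM at P6), and of 12 endothelial genes 3 rose; their part was not tested.

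The rises of Tyrobp and Trem2 were the weakest of the 4. Tyrobp was not called without E16 replicate 1 (0.91, adjusted p = 0.0935) or P6 replicate 2 (1.01, adjusted p = 0.0575). Trem2 was not called without E16 replicate 1 (0.86, adjusted p = 0.234), P6 replicate 1 (1.28, adjusted p = 0.0685) or P6 replicate 2 (1.09, adjusted p = 0.123), nor with transcript estimates summed per gene (0.73, adjusted p = 0.0544). Csf1r was called without E16 replicate 2 (1.04, adjusted p = 8.9e-04) or P6 replicate 1 (1.02, adjusted p = 6.3e-04). Tmem119 was called lower with the summed transcript estimates (-1.15, adjusted p = 0.0368).

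Between P6 and P14 only Tmem119 was called, higher at P14 (log2 change 1.60 ± 0.487, adjusted p = 0.0152), against 10.13% of all genes called higher and 5.52% lower. DESeq2 also called only a rise, and Tyrobp alone was lower at an unadjusted p under 0.05. The call of Tmem119 was lost without P6 replicate 1 (1.29, adjusted p = 0.137) or P14 replicate 2 (1.40, adjusted p = 0.0874). P2ry12 passed the adjusted p at less than 2-fold (0.88 ± 0.293, adjusted p = 0.0254). The median was 0.21 over the 10 genes and 0.032 over all genes.

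From P14 to P28, 6 of the 10 genes fell and 0 rose, where 4.81% of all genes were called lower and 4.05% higher by edgeR. DESeq2 also called 0 higher, and 0 were higher at an unadjusted p under 0.05. The receptors Csf1r (log2 change -1.54 ± 0.165, adjusted p = 5.1e-06) and Cx3cr1 (-1.53 ± 0.220, adjusted p = 8.8e-05) fell most, then Trem2 (-1.44 ± 0.431, adjusted p = 0.0208), P2ry12 (-1.24 ± 0.296, adjusted p = 0.00532), Tyrobp (-1.06 ± 0.343, adjusted p = 0.0313) and C1qb (-1.001 ± 0.278, adjusted p = 0.0139). Ctss passed the adjusted p at less than 2-fold (-0.70 ± 0.212, adjusted p = 0.0224). C1qa (-0.86 ± 0.315, adjusted p = 0.0536) and C1qc (-0.99 ± 0.394, adjusted p = 0.0768) did not pass, and Tmem119 had a log2 change of -0.0056 ± 0.437. The median was -1.03 over the 10 genes and -0.0084 over all genes. Other tissues' genes moved with them: 5 of 10 pigment epithelium genes fell (136 to 159 CPM in sum at P14, 51.4 to 78.1 at P28), as did 6 of 12 endothelial genes (510 to 527 and 239 to 279 CPM) and 2 of 11 mesenchymal genes (70.5 to 71.3 and 30.8 to 31.3 CPM). Every pigment epithelium and endothelial gene had counts in these libraries, and the part of these tissues was not tested.

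The calls of Csf1r, Cx3cr1 and P2ry12 were kept under every setting with the 2-fold rule that was run for this window, which left out each of its own 4 libraries in turn. Tyrobp was not called without any 1 of the 4 libraries (log2 changes of -1.16 to -0.96 and adjusted p of 0.0675 to 0.155). C1qb was lost without P14 replicate 2 (-0.96, adjusted p = 0.0742), without P28 replicate 1 (-0.83, adjusted p = 0.121), with a filter of 1 CPM in 4 libraries (-0.98, adjusted p = 0.0131) and with summed transcript estimates (-0.95, adjusted p = 0.0105). Trem2 was lost without P14 replicate 1 (-1.51, adjusted p = 0.0579), P14 replicate 2 (-1.38, adjusted p = 0.0937) or P28 replicate 1 (-1.14, adjusted p = 0.167), and with summed transcript estimates (-0.66, adjusted p = 0.0991). C1qc was called lower with no filter on low counts (-1.01, adjusted p = 0.0187).

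Between E16 and P28, 0 of the 10 genes were called by edgeR, where 22.7% of all genes were called higher and 18.3% lower. DESeq2 called 0 as well, and at an unadjusted p under 0.05 Ctss was higher and Cx3cr1 lower at P28. Ctss was higher at P28 with an adjusted p that passed but less than 2-fold (0.81 ± 0.217, adjusted p = 0.00367). Tmem119 stood at 0.44 ± 0.445 and C1qb at -0.23 ± 0.282.

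**Figure D3:**
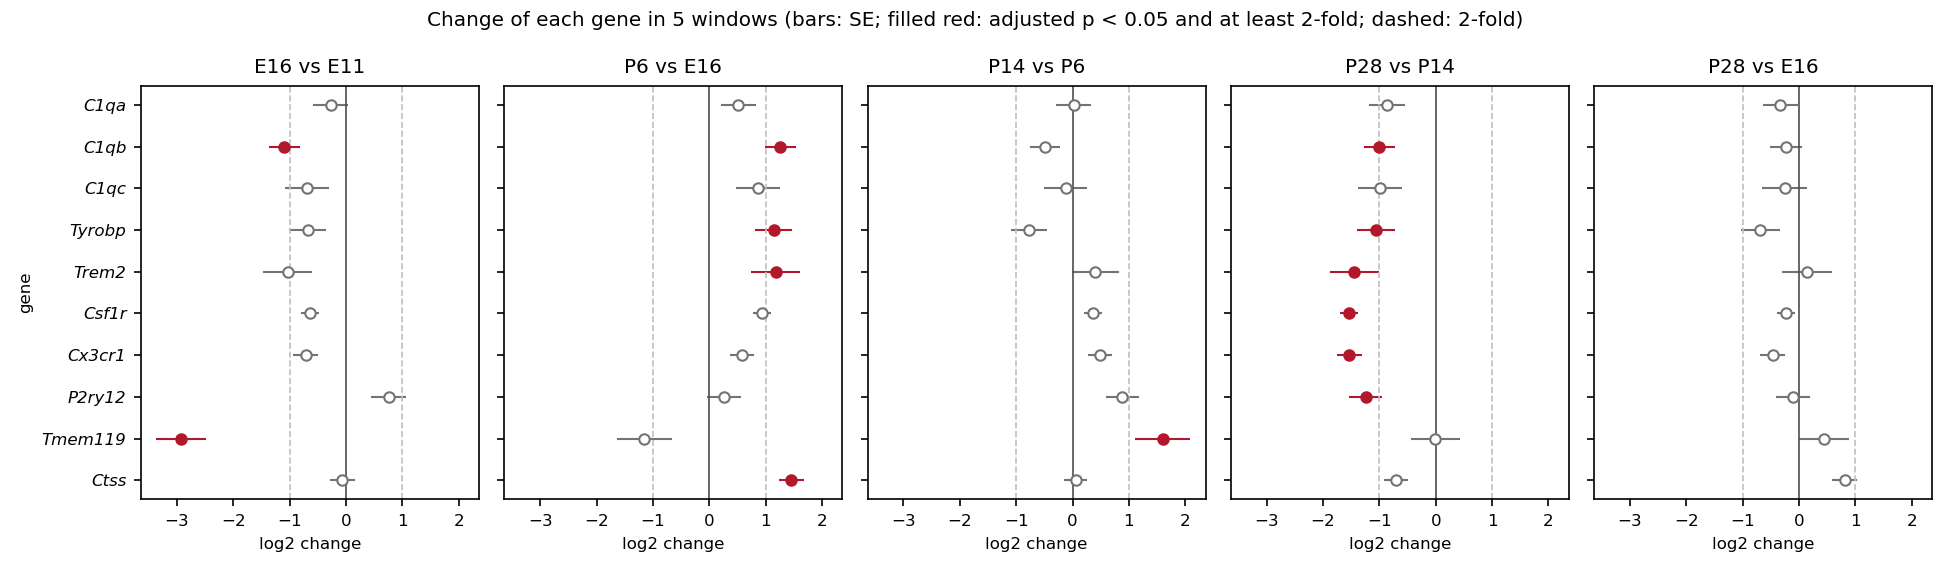
Log2 change (horizontal axes) with its SE for each of the 10 genes (rows) in 5 windows of age; filled red points passed the adjusted p and the 2-fold rule, and dashed lines mark 2-fold. Points lie to the right for 4 called genes in P6 against E16 and to the left for 6 called genes in P28 against P14.

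Between neighbouring stages, 14 changes of the 10 genes were called over 11 steps, and the genes did not move in the same steps. From E11 to E12 Ctss (1.07 ± 0.218, adjusted p = 0.00269) and P2ry12 (1.25 ± 0.307, adjusted p = 0.00811) rose while Tmem119 fell (-1.38 ± 0.408, adjusted p = 0.0225), with 4.08% of all genes called higher and 3.92% lower. All 3 calls were lost without E11 replicate 2 (Ctss 0.77, adjusted p = 0.0533; P2ry12 0.98, adjusted p = 0.116; Tmem119 -0.94, adjusted p = 0.242), and that of Tmem119 also without E12 replicate 1 (-0.91, adjusted p = 0.229). Without the 3 lens-rich libraries, 1 library was left at each of E11 and E12. The log2 changes were then 1.42 for Ctss, 1.57 for P2ry12, -2.43 for Tmem119, 1.07 for Csf1r and 1.10 for Tyrobp.

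From E12 to E14, Cx3cr1 (-1.26 ± 0.217, adjusted p = 3.8e-04), Tyrobp (-1.18 ± 0.334, adjusted p = 0.0162) and Ctss (-1.11 ± 0.219, adjusted p = 0.00129) fell, with 3.38% of all genes called lower and 7.52% higher. Tyrobp was lost without E12 replicate 1 (-1.04, adjusted p = 0.0911) or E14 replicate 1 (-0.99, adjusted p = 0.130). Without the 3 lens-rich libraries, 1 library was left at each of E12 and E14. The log2 changes were then -1.28 for Cx3cr1, -1.50 for Tyrobp and -1.09 for Ctss. Csf1r passed the adjusted p at less than 2-fold both in this step (-0.75 ± 0.160, adjusted p = 0.00238) and from E14 to E16 (-0.69 ± 0.163, adjusted p = 0.00645), a step in which edgeR and DESeq2 called 0 of the 10 and Csf1r alone had an unadjusted p under 0.05 (5.47% of all genes called higher and 1.67% lower). Without the 3 lens-rich libraries Csf1r stayed under 2-fold from E12 to E14 (-0.74) and from E14 to E16 (-0.71).

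Around birth P2ry12 alone was called: it fell from E16 to P0 (-1.47 ± 0.318, adjusted p = 0.00322), with 3.03% of all genes called lower and 4.75% higher, and rose from P0 to P2 (1.74 ± 0.319, adjusted p = 0.00147), with 3.02% called higher and 0.961% lower. The fall was lost without E16 replicate 2 (-1.02, adjusted p = 0.0699). With summed transcript estimates Tmem119 was called lower from E16 to P0 too (-1.26, adjusted p = 0.0440). Csf1r passed the adjusted p from P0 to P2 at less than 2-fold (0.79 ± 0.166, adjusted p = 0.00379) and reached 2-fold without P2 replicate 1 (1.0003, adjusted p = 0.00289). From P2 to P4, Ctss (1.68 ± 0.221, adjusted p = 2.3e-05) and C1qb (1.08 ± 0.273, adjusted p = 0.00529) rose, with 3.97% of all genes called higher and 7.28% lower. C1qb was lost without P2 replicate 1 (0.99, adjusted p = 0.0562) and fell under 2-fold without P4 replicate 2 (0.96, adjusted p = 0.0432). Tyrobp (0.97 ± 0.329, adjusted p = 0.0306), Cx3cr1 (0.91 ± 0.217, adjusted p = 0.00345) and Csf1r (0.61 ± 0.162, adjusted p = 0.00708) passed the adjusted p in the same step with smaller changes. Tyrobp was called without P2 replicate 2 (1.24, adjusted p = 0.0446) and Cx3cr1 without P4 replicate 1 (1.08, adjusted p = 0.00669).

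From P4 to P6, P6 to P10 and P10 to P14, edgeR and DESeq2 each called 0 of the 10 in every step, with 0, 2 and 4 genes at an unadjusted p under 0.05. Of all genes, 1.08%, 4.59% and 3.45% were called higher in these steps and 1.54%, 3.28% and 1.08% lower. The next called step was from P14 to P21, where P2ry12 (-1.42 ± 0.3001, adjusted p = 0.00195), Cx3cr1 (-1.38 ± 0.220, adjusted p = 2.0e-04), Ctss (-1.20 ± 0.216, adjusted p = 5.7e-04) and Csf1r (-1.03 ± 0.162, adjusted p = 1.7e-04) fell, with 5.07% of all genes called lower and 4.31% higher. Csf1r went under 2-fold without P14 replicate 1 (-0.98, adjusted p = 0.00257) or P21 replicate 1 (-0.96, adjusted p = 0.00509). DESeq2 called 5 in this step, Trem2 (-1.12, adjusted p = 0.0467) besides these 4, and Trem2 was also called with no filter (-1.11, adjusted p = 0.0203), against -1.11 ± 0.427, adjusted p = 0.0616 in edgeR with the filter. Tyrobp passed the adjusted p under 2-fold (-0.97 ± 0.345, adjusted p = 0.0438) and was called with library size alone (-1.002, adjusted p = 0.0413) and with summed transcript estimates (-1.01, adjusted p = 0.0290). From P21 to P28 edgeR and DESeq2 called 0, with Ctss and Csf1r at an unadjusted p under 0.05, where 0.339% of all genes were called higher and 0.549% lower.

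Ratios to Csf1r, taken within each library, do not depend on library scaling. Ctss to Csf1r was 0.385 and 0.398 at E14, 0.885 and 0.9404 at P4, 1.37 and 1.20 at P28. For C1qb it was 0.285 and 0.290 at E12, 0.594 and 0.633 at P0, 0.245 and 0.282 at P14, and for C1qa 0.136 and 0.151 at E12, 0.411 and 0.398 at P0, 0.204 and 0.199 at P14, 0.333 and 0.308 at P28. Both C1q ratios were higher at P0 than at E12 or P14, with no overlap. P2ry12 to Csf1r was 0.189 and 0.173 at E11, 0.379 and 0.570 at E16, 0.228 and 0.219 at P0, 0.603 and 0.309 at P2, and 0.538 and 0.513 at P28. It thus went up and down: P28 did not overlap with E11 or P0 but overlapped with E16 and P2. Tmem119 to Csf1r was 0.322 and 0.768 at E11, 0.0195 and 0.0287 at P6, 0.162 and 0.171 at P28. These ratios show unequal change of the genes, with no test.

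**Figure D4:**
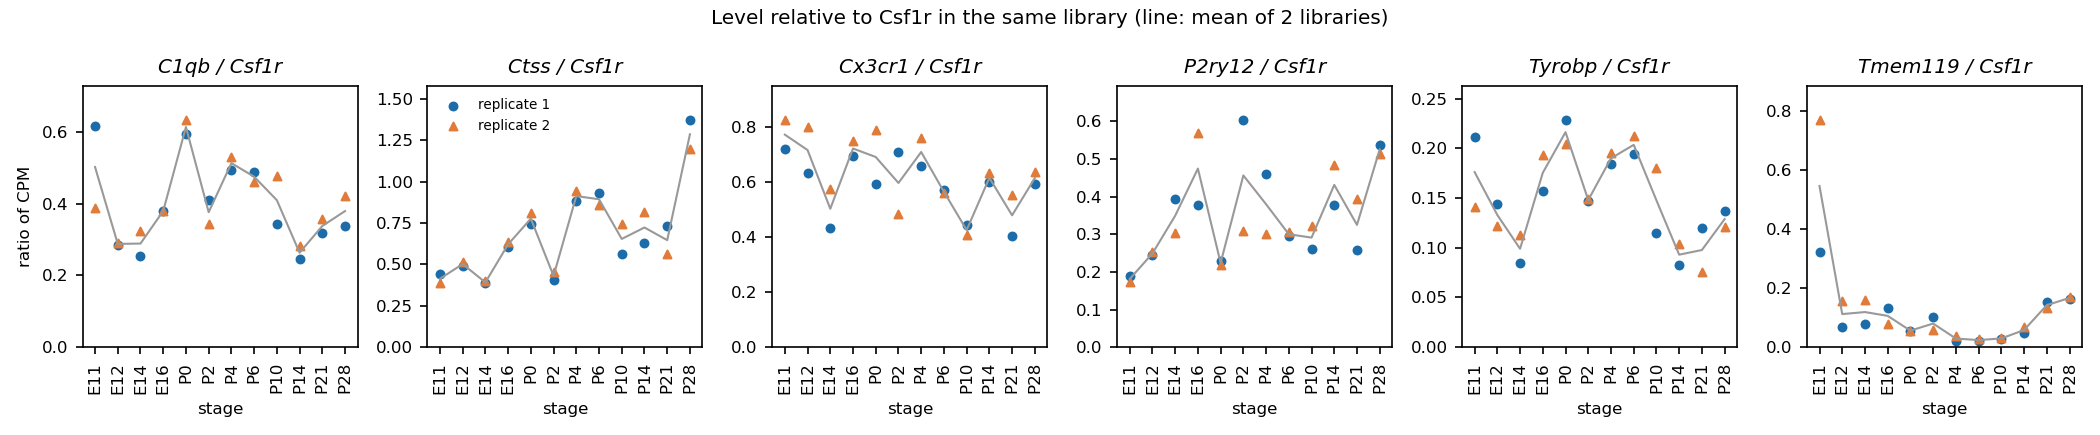
CPM of C1qb, Ctss, Cx3cr1, P2ry12, Tyrobp and Tmem119 divided by CPM of Csf1r in the same library (vertical axes), by stage; points are libraries and lines join stage means. The Ctss ratio runs from 0.385 at E14 to 1.37 at P28, and the Tmem119 ratio is highest at E11 and low from P4 to P10.

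Levels can be compared between genes only per length. Per kilobase of transcript, Ctss was at 8.25 CPM per kb at E12, 11.17 at P4 and 6.65 at P28, and C1qb at 5.90 at E11 and 7.67 at P4. Tyrobp was at 5.31 CPM per kb at E12, close to Csf1r at 5.75, although its CPM was far lower. Trem2 was at 1.91 CPM per kb at its highest stage, P10, and Tmem119 at 0.16 at P0.

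Over the 24 libraries the log2 CPM of the 10 genes had a median Pearson r of 0.652 over 45 pairs, given as a description, since the points share ages, libraries and scaling. Without Tmem119 the median was 0.708 over 36 pairs (0.411 to 0.930, the highest for C1qb and Tyrobp). Tmem119 had r of -0.283 to 0.248 with the other members. Among the genes with the most similar course to the mean of the 10 were Lox (r = 0.85), Tyrp1 (0.84), Dct (0.84), Gpr34 (0.84), Gulp1 (0.84), Lyz2 (0.84), Ly86 (0.83), Adgre1 (0.82), Ndufa1 (0.82), Nckap1l (0.81), Cd53 (0.81), Pcdh12 (0.81), Lgals9 (0.81) and Adamts18 (0.80). They include macrophage genes (Gpr34, Lyz2, Ly86, Adgre1, Cd53) and the pigment genes Tyrp1 and Dct.

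Single genes had these nearest courses. For the C1q chains they were Tyrp1 (0.83), Zscan18 (0.76) and Tmem175 (0.76) for C1qa, Lyz2, Fcgr3 and Ly86 (each 0.85) for C1qb, and Tyrp1 (0.82), Adamts18 (0.80) and Gbas (0.78) for C1qc. Tyrobp was closest to Fcgr3 (0.90), Adgre1 (0.87) and Ndufa1 (0.87), and Trem2 to Dct, Gpr34 and Col8a2 (each 0.80). Csf1r was closest to Pld4 (0.84), Adgre1 (0.83) and Cyth4 (0.82), and Cx3cr1 to Adgre1 (0.86), the pigment gene Tyr (0.86) and Bace2 (0.85). Ctss was closest to Gpr34 (0.89), Lgals9 (0.88) and Trip4 (0.88). For P2ry12 the values were lower: 9130011E15Rik (0.70), Nckap5 (0.69) and Pcdhga5 (0.69). Tmem119 had Mettl7a1 (0.94) and Bmp7 (0.93) among its nearest, and neither was among the 3 nearest of another member.

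Ligands of the receptors are given next, again with log2 changes and SE. Csf1, a ligand of Csf1r, stood at 18.7 ± 5.79 CPM at E11, 22.5 ± 1.63 at E12 and 3.06 ± 0.838 at P28 and fell from E16 to P6 (log2 change -1.35 ± 0.302, adjusted p = 0.00131). Il34, the other ligand, stood at 0.328 ± 0.0149 CPM at P6, 3.21 ± 0.244 at P14 and 4.69 ± 0.426 at P21 and rose from P6 to P14 (3.27 ± 0.655, adjusted p = 7.5e-04). Cx3cl1, the chemokine bound by Cx3cr1, stood at 22.0 ± 7.84 CPM at E11, 2.65 ± 0.250 at E16, 74.6 ± 2.65 at P14 and 82.9 ± 4.97 at P21. It fell from E11 to E16 (-3.05 ± 0.289, adjusted p = 1.6e-07) and rose from E16 to P6 (2.63 ± 0.288, adjusted p = 8.3e-07) and from P6 to P14 (2.18 ± 0.256, adjusted p = 4.2e-06). At P28 the receptors Csf1r and Cx3cr1 were near their lowest while Il34 and Cx3cl1 were near their highest.

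**Figure D5:**
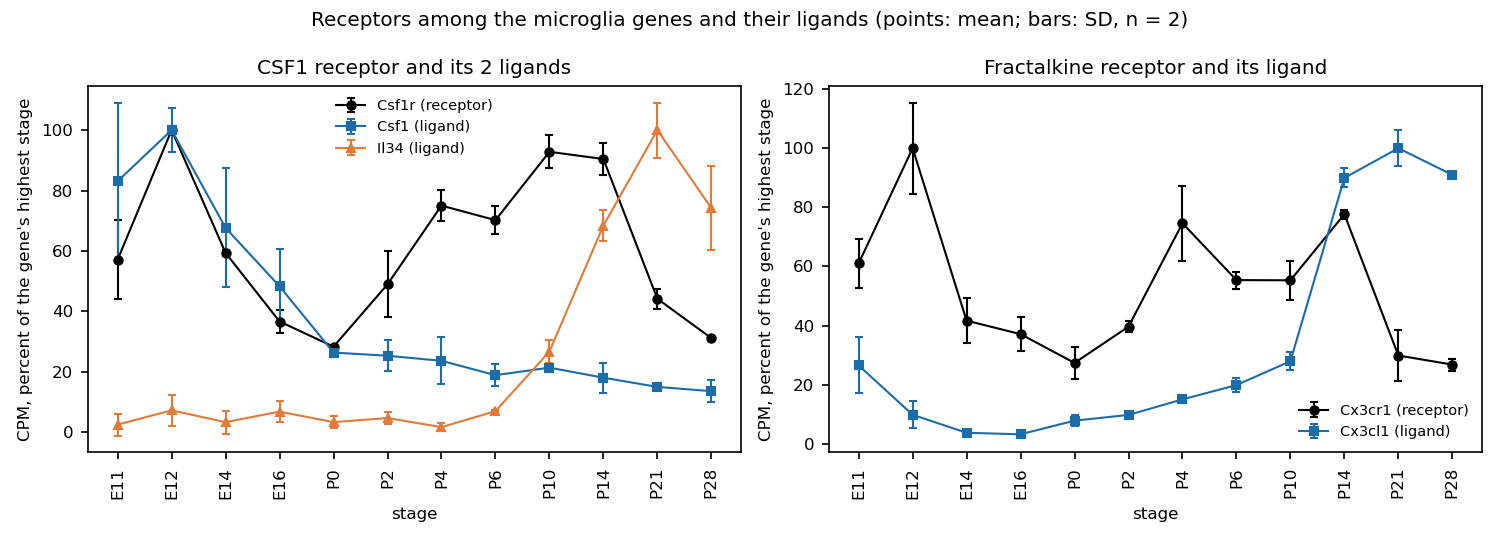
Stage means of Csf1r, Csf1 and Il34 (left) and of Cx3cr1 and Cx3cl1 (right) as a percent of each gene's own highest stage, with SD over 2 libraries, by stage. Csf1r and Csf1 are highest at E12, Il34 and Cx3cl1 at P21, and Cx3cr1 at E12.

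Of 17 partner genes of these receptors (16 tested), 1 rose and 6 fell from E11 to E16, the largest called changes being those of Cx3cl1 and Plcg2 (-2.68 ± 0.463), a phospholipase downstream of Trem2. In the window from E16 to P6, 2 rose and 2 fell, led by Cx3cl1 and Apoe (2.05 ± 0.181), a lipoprotein that Trem2 binds. Between P6 and P14, 4 rose, led by Il34 and Cx3cl1. Later, from P14 to P28, 1 rose and 3 fell, led by P2rx7 (1.39 ± 0.397), an adenosine triphosphate receptor, and Syk (-1.27 ± 0.314), the kinase that Tyrobp recruits. The list's medians in these 4 windows were -0.49, 0.067, 0.38 and -0.30. Over all genes, 13.6% were called higher and 9.11% lower from E11 to E16, and 13.2% and 11.7% from E16 to P6. From P6 to P14 the shares were 10.13% and 5.52%, and from P14 to P28 they were 4.05% and 4.81%. The medians over all genes were 0, 0.0062, 0.032 and -0.0084. Counts and medians of this list and of the lists below are to be read against these values.

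Of 18 complement genes other than C1q (16 tested), 1 rose and 1 fell from E11 to E16, 2 rose from E16 to P6, 1 rose and 1 fell from P6 to P14, and 1 rose and 2 fell from P14 to P28, with medians of -0.11, 0.58, 0.060 and -0.38. Of all genes, 13.6%, 13.2%, 10.13% and 4.05% were called higher in these windows and 9.11%, 11.7%, 5.52% and 4.81% lower. With library size alone the complement medians were 0.020 from E11 to E16 and -0.011 from P6 to P14. DESeq2 called 1 higher and 1 lower from P14 to P28. C3, the central component, had 1 count in all at E11 and stood at 0.783 ± 0.554 CPM at E16 and 2.53 ± 0.0631 at P14. C3ar1, the receptor of a C3 fragment, fell from E11 to E16 (-1.83 ± 0.391). Itgam, a chain of complement receptor 3, rose from E16 to P6 (1.58 ± 0.356), and Itgax stood at 0.0451 ± 0.0638 CPM at E16 and 1.46 ± 1.21 at P6. From P6 to P14, Itgax fell (-3.15 ± 0.913) and the protease gene C1ra rose (2.04 ± 0.499). In the last window, P14 to P28, Masp1 fell (-3.16 ± 0.835) and C4b, which C1 cleaves, rose (2.84 ± 0.794). C4b had no counts at E16 and 3.4998 ± 2.43 CPM at P28, at least 76.3-fold higher when 3 counts over both E16 libraries are taken as the floor.

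Of 17 complement regulators, 9 rose and 2 fell from E11 to E16, 5 rose and 1 fell from E16 to P6, 7 rose and 1 fell from P6 to P14, and 2 rose and 1 fell from P14 to P28. From E11 to E16 the largest changes were those of Sez6l (8.39 ± 0.319) and Sez6l2 (5.65 ± 0.323), neuronal membrane proteins with complement-control domains. Sez6 (2.49 ± 0.192) and Srpx2 changed most from E16 to P6, the latter from 0.0464 ± 0.0656 to 0.363 ± 0.251 CPM. From P6 to P14, Vtn (3.86 ± 0.212) and Cfi (3.17 ± 0.4205) rose most; vitronectin blocks the terminal complex and Cfi cleaves C3b. Vtn (1.55 ± 0.189) and Cd59a (1.31 ± 0.204) rose most from P14 to P28. The medians were 1.04, 0.55, 0.83 and -0.38. Most of these genes are not specific to microglia.

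Of 15 other genes of the microglia homeostatic list, 3 fell from E11 to E16, led by Sall1 (-2.99 ± 0.301) and Bin2 (-2.35 ± 0.560). Between E16 and P6, 4 rose and 1 fell (4 and 0 with DESeq2), led by Gpr84 (2.31 ± 0.547) and Fcrls (1.26 ± 0.363). From P6 to P14, 3 rose and 1 fell, led by Mef2c (1.62 ± 0.231) and Selplg (1.152 ± 0.327). Between P14 and P28, 1 rose and 4 fell, led by Mef2c (2.60 ± 0.225) and Fcrls (-1.57 ± 0.389). The medians were -0.62, 0.34, 0.30 and -0.35. Mef2c, Sall1 and Sparc are also expressed by other retinal cells, and Sparc stood at 527 ± 2.01 CPM at P14, far above any of the 10. Siglech was not called in any window (0.26 ± 0.341 from E16 to P6 and -0.35 ± 0.336 from P14 to P28).

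Of 20 general macrophage genes, 9 fell from E11 to E16, 4 rose and 1 fell from E16 to P6, 2 fell from P6 to P14, and 7 fell from P14 to P28. The medians were -1.03, 0.44, -0.077 and -0.96. Cd52 (-1.82 ± 0.469) and the leukocyte phosphatase Ptprc (-1.51 ± 0.373) fell most in the first window. From E16 to P6 the largest were the Fc receptor gene Fcgr2b (1.99 ± 0.702), which rose, and Cyba (-1.69 ± 0.305), a subunit of the phagocyte oxidase, which fell. The lysosomal marker Cd68 (-1.24 ± 0.210) was among those that fell from P6 to P14. Adgre1, which encodes F4/80 (-2.01 ± 0.384), and the pore protein gene Mpeg1 (-1.65 ± 0.286) fell most from P14 to P28, and Aif1, the gene of the microglial stain Iba1, fell too (-1.29 ± 0.451).

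Of 10 transcription factors of macrophages, 1 rose and 6 fell from E11 to E16, 1 rose and 3 fell from E16 to P6, 1 fell from P6 to P14, and 3 fell from P14 to P28. Tal1 (-3.78 ± 0.495) and Maf (-2.09 ± 0.365) fell most in the first window, together with Spi1 (-1.49 ± 0.541) and Irf8 (-1.33 ± 0.392), on which microglia depend. Runx1 (-1.84 ± 0.410) and Ikzf1 (-1.61 ± 0.518) fell from E16 to P6. Irf5 fell from P6 to P14 (-3.28 ± 0.843), and Tal1 (-1.48 ± 0.525) and Irf8 (-1.43 ± 0.403) from P14 to P28. The medians were -1.41, 0.18, -0.015 (0.0059 for the macrophage factors with DESeq2) and -0.65. Tal1 also belongs to red cell precursors, whose 10 genes summed to 3914 to 8658 CPM at E11 and 452 to 709 at E16; their part in its fall was not tested.

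Genes that activated microglia raise (16, of which 14 were tested) moved in both directions: 4 fell from E11 to E16 (with library size alone 1 of the activated microglia list also rose), led by Gpnmb (-2.81 ± 0.694) and Clec7a (-2.52 ± 0.562). From E16 to P6, 3 rose and 2 fell, led by Cd9 (2.17 ± 0.140) and Clec7a (2.15 ± 0.564). From P6 to P14, 3 rose and 2 fell, led by Spp1 (2.15 ± 0.502) and Lgals3 (2.11 ± 0.634). From P14 to P28, 1 rose and 3 fell, led by Spp1 (1.55 ± 0.462) and Fabp5 (-1.12 ± 0.131). The medians were -0.71, 0.53, 0.12 and -0.65. Spp1 (osteopontin) is made by retinal ganglion cells as well, and Gpnmb by pigment cells, whose 10 genes summed to 180 to 233 CPM at E11 and 26.5 to 41.1 at E16; their part in its fall was not tested.

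Among 13 cathepsins and related genes other than Ctss (12 tested), 6 rose from E16 to P6, led by Lgmn (2.57 ± 0.124), an endopeptidase of lysosomes, and Cst3 (1.94 ± 0.134), a secreted cathepsin inhibitor. From E11 to E16, 1 rose and 3 fell (1 and 1 of the cathepsins with library size alone), with Ctsc (-1.27 ± 0.131) and Ctsl (-1.12 ± 0.113) leading. Ctsh rose from P6 to P14 (2.202 ± 0.263) and fell from P14 to P28 (-1.36 ± 0.254), and it was the only one called in either window. The medians from E11 to E16, E16 to P6, P6 to P14 and P14 to P28 were -0.79, 0.87, 0.077 and -0.092.

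Of 14 genes of phagocytosis, 4 rose and 3 fell from E11 to E16, led by the engulfment receptor Megf10 (3.46 ± 0.218) and the integrin gene Itgb3 (-2.94 ± 0.444). Between E16 and P6, 3 rose, led by Gas6 (2.36 ± 0.147), a ligand of Mertk, and Sirpa (1.70 ± 0.139). From P6 to P14, 5 rose, led by Gas6 (1.75 ± 0.137) and Itgav (1.54 ± 0.169), and Megf10 alone fell from P14 to P28 (-1.30 ± 0.192). Mertk, the receptor with which pigment epithelium engulfs photoreceptor tips, fell from E11 to E16 (-1.58 ± 0.261) and rose from P6 to P14 (1.40 ± 0.253). The medians of the list were -0.33, 0.39, 0.36 and -0.15.

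Border macrophage genes (10, of which 8 were tested) were led by falls from E16 to P6. In that window 4 fell, among them the mannose receptor Mrc1 (-3.34 ± 0.583) and F13a1 (-4.62 ± 0.581), and Pf4 stood at 0.611 ± 0.0981 CPM at E16 and 0.0159 ± 0.0225 at P6. From E11 to E16, Lyve1 rose (4.097 ± 0.591) and 2 fell, with Pf4 (-2.65 ± 0.564) falling most. From P6 to P14, Lyve1 (5.04 ± 0.482) and F13a1 (2.89 ± 0.613) rose. From P14 to P28, 1 rose and 3 fell (0 and 4 of the border macrophage list with DESeq2), among them F13a1 (-3.26 ± 0.630) and Mrc1 (-2.76 ± 0.713), and Pf4 had no counts at P28, at least 3.72-fold lower. The medians from E11 to E16 onward were 0.12, -1.44, 0.74 and -0.64. Of the 10 monocyte and granulocyte genes 4 were tested: 3 fell from E11 to E16 (2 with DESeq2) and 1 rose from E16 to P6 (0 with DESeq2), with medians of -1.79 and -0.53. The monocyte chemokine receptor Ccr2 was among the falls from E11 to E16 (-1.63 ± 0.611) and was the 1 that rose from E16 to P6 (1.52 ± 0.612), against the list's median.

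Without the 3 lens-rich libraries, the companion counts from E11 to E16 changed most for the general macrophage genes, of which 1 rose and 5 fell (median -0.55). Of the complement genes 1 rose and 2 fell, of the regulators 10 rose and 1 fell, of the homeostatic list 1 rose and 4 fell, of phagocytosis 4 rose and 5 fell, of border macrophage genes 3 rose and 2 fell, and of monocyte and granulocyte genes 2 fell. The receptor partners (1 rose, 7 fell), macrophage factors (1 and 6), activated microglia genes (0 and 3) and cathepsins (1 and 3) stayed within 1 call of their counts over all libraries. Of the companion genes named for this window, Gpnmb (-1.08) and Ccr2 (-1.09) lost their calls in that setting, which left 1 library at E11.

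The authors' deposited table of changes against E11 holds 12718 genes and 7 of the 10, without C1qc, Csf1r and Trem2. In the authors' deposited table C1qb, P2ry12 and Tyrobp share cluster 35 (88 genes), C1qa and Ctss share cluster 36 (283 genes), and Cx3cr1 and Tmem119 belong to clusters 4 (98 genes) and 5 (161 genes). Its log2 changes against E11, from the authors' deposited table, are -4.07 for Tmem119 at P0, 1.57 for Ctss at P4 and 1.92 for P2ry12 at P14.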

How the data were processed

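The 10 genes, the companion lists and the windows were chosen with earlier results of these data known. Companion genes named are, for each list, the 2 called genes with the largest log2 change in each window described, plus a set of named ligands, factors and markers. A few genes that this rule or the likeness ranking selects are not reported here, and counts and medians over lists include them. The authors deposited estimated counts per Ensembl gene and transcript, per the file headers, and kallisto 0.42.4, edgeR 3.13.9 and GRCm38.p5 are given without roles in the submitters' processing notes. The step from transcripts to genes is not described there. The authors also deposited a normalized signal per gene and library (CPM by its name), used only to compare the highest stages, and a table of log2 changes with p-values and clusters, per the file headers.

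Estimated counts were rounded. Of 45594 genes, 21858 passed filterByExpr (minimum count 10, by stage) in edgeR 4.0.16 (limma 3.58.1, R 4.3.3). Libraries were scaled by TMM, and the 24 libraries entered 1 quasi-likelihood fit with a mean for each stage, which left 12 residual degrees of freedom. Genes were called at a Benjamini-Hochberg adjusted p under 0.05 and at least 2-fold; for all stages together, the fold is the range of fitted stage means. The SE is the absolute log2 change over the square root of F. The model was tested on simulated data. Alternatives were DESeq2 1.42.0, other scalings and filters, a replicate block, transcript sums and leaving out each library; leaving out the 3 lens-rich libraries was chosen after seeing the data. Likeness was taken over 18228 genes with at least 1 CPM in their highest stage. Gene positions of 8 of the 10 genes in the deposited table were the same as in the annotation used here. With 2 libraries a stage, an exact permutation test of single stages cannot reach 0.05, so none was run.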

Additional observations from a re-analysis of the deposited data

How the results depend on the processing

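No result changed direction past the threshold under any setting tried. Of 2289 single-gene alternatives, 2204 kept their side of the threshold, 46 lost and 39 gained a call. With no fold threshold the counts were 4 lower in E16 against E11, 2 higher in P14 against P6, 1 higher in P28 against E16 and 23 in the 11 steps. With library size alone, 1 gene was lower in E16 against E11; that scaling moved the median of all genes by 0.14 in this window. Without the 3 libraries with the highest lens sums, 1 was lower and 1 higher there. With summed transcript estimates, 1 gene (Tmem119) was lower in P6 against E16. With the replicate number as a block, 1 (Tmem119) was lower there too. The block changed no other count past 1.5 times. Whether the replicate numbers pair libraries across ages is not known. Deviations of same-numbered libraries had correlations of -0.274 to 0.344 (median 0.0163) over 66 stage pairs, 12 of them over 0.1. These values cannot exclude a pairing.

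Leaving out each of the 24 libraries in turn gave 8 to 10 genes called over all stages and 12 to 16 changes over the steps. For a window, its own 4 libraries were left out in turn, which gave 0 to 1 higher and 1 to 5 lower in E16 against E11, 2 to 5 higher in P6 against E16, 0 to 1 higher in P14 against P6, and 3 to 5 lower in P28 against P14 (6 with all libraries). When a library was left out, its stage had 1, assumed to vary like the others. Depth limits Tmem119 (9 to 235 counts) and Tyrobp (23 to 111) most.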
